A study of Homo sapiens with 12 samples.

Results

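Box C/D small nucleolar RNAs (snoRNAs) were followed in A673 Ewing sarcoma cells across 12 expression arrays. The members were the probe sets annotated with a single gene symbol that starts with SNORD, one per symbol, and the array measured 115 of them among the 18404 genes tested. The choice used the symbols alone and no measured change, and each of the 115 members had 1 probe set. Of these, 112 were matched to a RefSeq gene by accession, and the pseudogenes SNORD13P1, SNORD13P2 and SNORD13P3 were not.

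Box C/D snoRNAs are short nucleolar RNAs that carry a C box and a D box, assemble with fibrillarin, NOP56, NOP58 and SNU13, and guide the methylation of ribose in ribosomal RNA by base pairing. Most human members lie in introns of host genes and are released when the host transcript is spliced, the lariat is opened and exonucleases trim the ends, so that host transcription and intron processing set their supply. Many hosts encode ribosomal proteins or translation factors, whereas others, such as GAS5 and the SNHG genes, yield spliced RNAs with little coding potential. Further members form long arrays of near-identical copies in imprinted regions, and a few, such as SNORD13, have a promoter of their own.

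A673 is an established Ewing sarcoma line driven by EWS-FLI1, a fusion protein with the DNA-binding domain of the transcription factor FLI1. The study screened compounds for disruption of EWS-FLI1 binding to DNA. It followed actinomycin D, a DNA-binding drug, in binding, reporter, expression and viability assays, and used FLI1 knock-down to define genes activated by EWS-FLI1. Its expression arrays formed 6 groups with 2 arrays each. They were untreated cells at time 0, cells given DMSO for 24 h, cells given 5 nM or 50 nM actinomycin D for 24 h, and cells infected with virus for an shRNA against FLI1 or against lacZ, a bacterial gene. The labels put the shRNA harvest at 48 h, but the protocol adds 48 h of selection to 24 h with virus, so the time since infection is uncertain. The 2 shRNA groups also shared Polybrene and puromycin selection, which the drug groups did not receive, and all groups are a single line. Whether the arrays of a group came from separate cultures is not stated for every group, so the p-values here cover no more than the scatter between the 2 arrays of each group, part or all of which may be technical.

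The values are log2 signals on the RMA scale, and a change is a difference of group means on that scale with its standard error (SE). Arrays of a group correlated at 0.995 to 0.998 over all genes, and the median member differed between them by 0.09 to 0.24. FLI1 read 8.63 and 8.45 on the lacZ shRNA arrays and 7.30 and 7.08 on the FLI1 shRNA arrays, a fall of 1.35 ± 0.09. All 7 measured Ewing sarcoma markers had means of 8.20 to 12.2, above the median gene at 7.45, and the 4 epithelial, 3 blood and 4 endothelial markers had means of 3.68 to 6.46, below it. Medians over all probe sets ranged from 6.67 on DMSO replicate 2 to 6.83 on 5 nM replicate 2. RMA makes the distributions of probe signals alike between arrays before they are summarized, so a change in the total RNA per cell cannot be read from these values. In bulk RNA, fewer cells with a transcript and less of it per cell cannot be told apart either. A member is called higher or lower where the adjusted p of limma's moderated test, over all 18404 genes, lies under 0.05. Remarks that arrays of 2 groups lie apart are description only, since many named members were chosen for this. The share of all genes with such arrays was not counted.

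At 5 nM actinomycin D the members rose widely. Of the 115, 74 were higher than with DMSO, 4 were lower and 37 did not pass, where 30.3% of all genes tested were higher and 23% lower. The median member changed by 0.56 and the median gene by 0.12. By over 2-fold and at an adjusted p under 0.01, 28 members were higher and 0 lower, against 2.64% and 7.86% of genes. Centring the arrays on 57 ribosomal protein genes, several of them snoRNA hosts, lowered the median gene by 0.36 and left 43 members higher and 18 lower, so that 70.5% rather than 94.9% of the calls were rises. These 57 genes are no unchanged reference. Without centring 41 of them, or 71.9%, were higher at 5 nM and 0 lower, with a median change of 0.29.

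The rises followed the genomic setting. Outside the imprinted clusters 58 of 69 members were higher and 1 lower, with a median change of 0.87, and inside them 16 of 46 were higher, or 34.8%, near the 30.3% of all genes, and 3 lower, with a median of 0.20. The level of a member on the array differed too. All 35 members with a mean signal of 8 to 11 were higher, with a median change of 1.00, whereas 5 of 31 with a mean below 5 were higher and 3 lower, with a median of 0.08. Setting and level overlap, since all 20 SNORD115 copies are among these 31 dim members, and their parts were not tested.

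**Figure D1:**
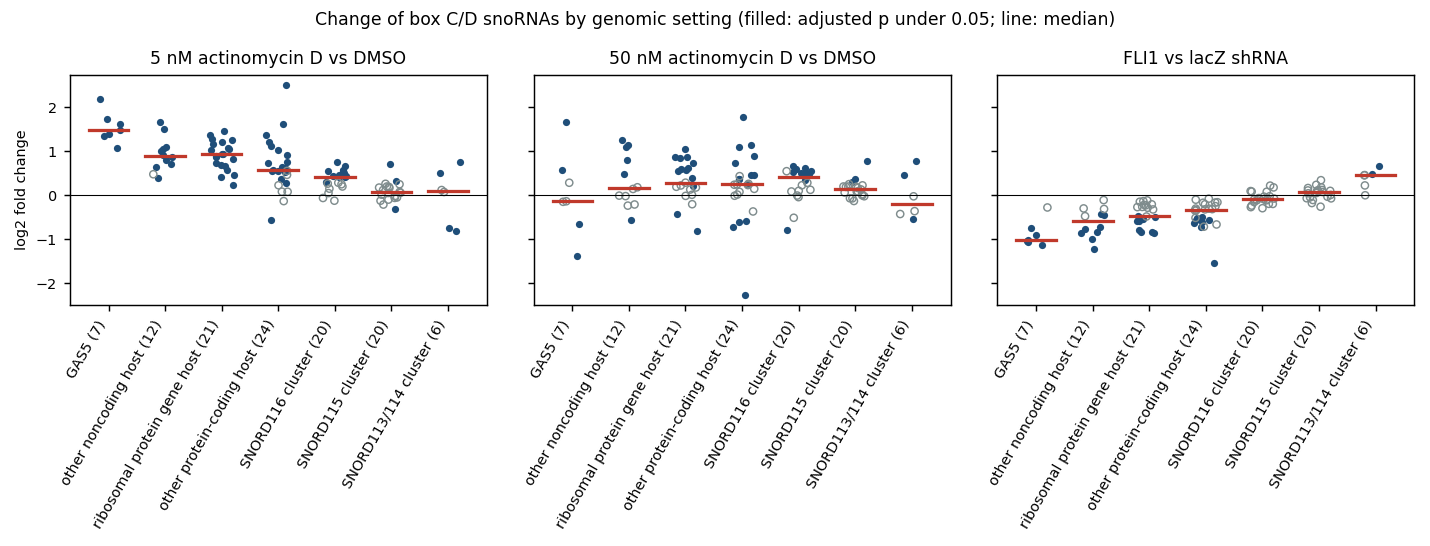
Each point is 1 box C/D snoRNA, placed by its genomic setting (number of members in brackets) and its log2 fold change in 1 of 3 comparisons; filled points have an adjusted p under 0.05 and lines mark medians. At 5 nM the 7 GAS5 and 21 ribosomal protein gene members all lie above 0, at 50 nM the 4 settings outside the imprinted clusters spread to both sides of 0, and after FLI1 shRNA all members of these 4 settings lie below 0.

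GAS5, a noncoding gene whose introns hold many box C/D snoRNAs, contributed 7 members, which guide methylation of both ribosomal subunits' RNA. In the order of transcription these are SNORD74, SNORD75, SNORD77, SNORD44, SNORD78, SNORD79 and SNORD81. All 7 were higher at 5 nM, by 1.07 to 2.19. SNORD75, a guide for the large-subunit RNA, read 9.03 and 8.46 with DMSO and 11.02 and 10.85 at 5 nM. Both treated arrays lay above both controls, a rise of 2.19 ± 0.18 or 4.57-fold (limma, adjusted p = 2.5e-06). SNORD79 read 8.97 and 8.49 with DMSO against 10.60 and 10.32 at 5 nM, and rose by 1.73 ± 0.14. SNORD77, the dimmest of the 7, went from 5.82 and 5.45 to 7.43 and 7.10, and rose by 1.63 ± 0.15. SNORD74, the brightest, went from 10.82 and 10.54 to 12.21 and 12.12, a rise of 1.49 ± 0.16. SNORD44, a guide for the small-subunit RNA, rose by 1.40 ± 0.18, SNORD78 by 1.34 ± 0.16 and SNORD81 by 1.07 ± 0.15.

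At 50 nM the same 7 members no longer moved together. Against DMSO, SNORD75 was still higher by 1.67 ± 0.18, with arrays at 10.25 and 10.57, and SNORD74 by 0.58 ± 0.16, with arrays at 11.22 and 11.30. SNORD78 was instead lower by 1.37 ± 0.16, with arrays at 7.62 and 7.67 that lay below DMSO at 9.22 and 8.80. SNORD77 was lower too, at 4.84 and 5.14, a change of −0.65 ± 0.15. SNORD44, SNORD79 and SNORD81 did not pass, with changes of −0.13, −0.15 and 0.29. Set directly against 5 nM, all 7 were lower at 50 nM, from −0.52 ± 0.18 for SNORD75 to −2.71 ± 0.16 for SNORD78 (limma, adjusted p = 1.8e-07). Over all genes 23.1% were lower in that contrast. The first 2 members in the order of transcription were the 2 of these 7 that stayed higher than with DMSO. This was seen only after the values were known, and the last member, SNORD81, lay above SNORD77 and SNORD78. Probe sets that GAS5 shares with SNORD76, SNORD80 and SNORD47 changed by 0.16, 0.24 and 0.04 at 50 nM, and none passed. Whether position in the host matters was not tested.

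**Figure D2:**
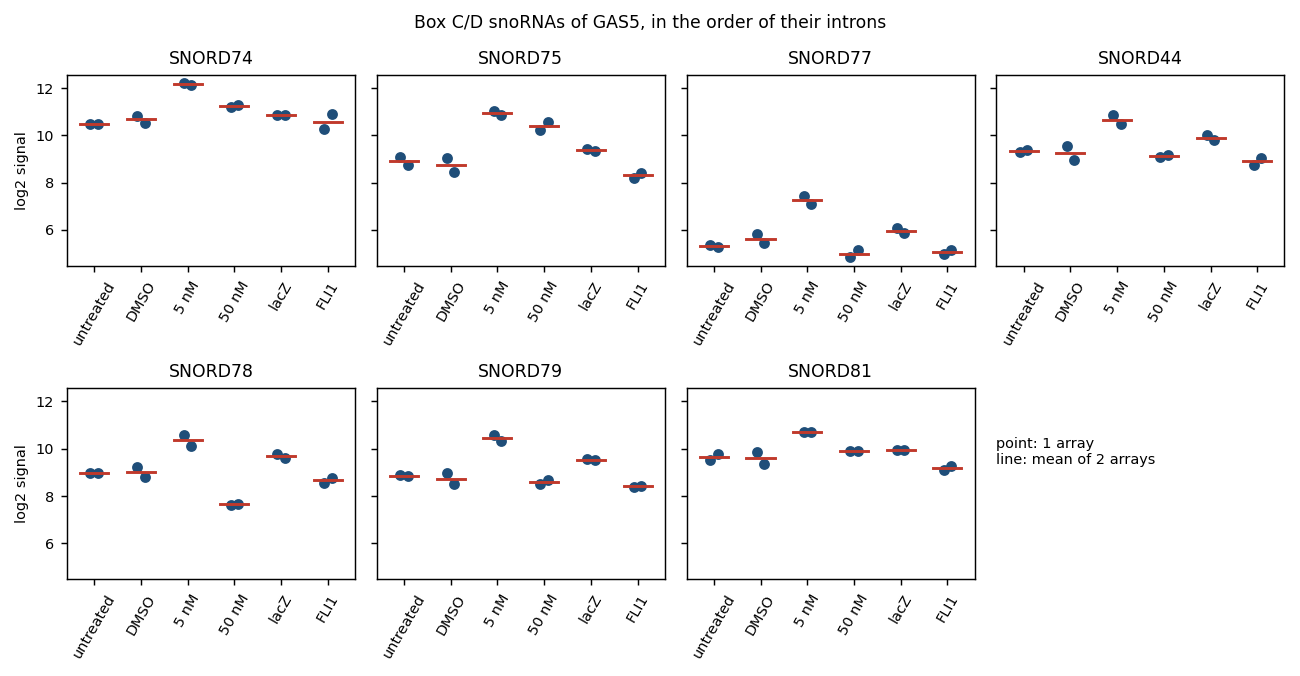
Log2 signal of the 7 box C/D snoRNAs of GAS5 in the order of their introns; each point is 1 array, each line the mean of the 2 arrays of a group. The 5 nM arrays are the highest of every panel, the 50 nM arrays run from clearly above DMSO (SNORD75) to below it (SNORD77, SNORD78), and in 6 of the 7 panels the FLI1 shRNA group is significantly below lacZ.

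Introns of ribosomal protein genes held 21 members, and all 21 were higher at 5 nM, by 0.23 to 1.47 with a median of 0.94. SNORD4B in RPL23A, a small-subunit guide, read 9.32 and 8.91 with DMSO and 10.50 and 10.68 at 5 nM, a rise of 1.47 ± 0.14 (limma, adjusted p = 7.8e-06). Its neighbours in the same host, SNORD4A and SNORD42A, rose by 1.05 and 0.94. SNORD43 in RPL3 went from 8.21 and 7.90 to 9.45 and 9.20, a rise of 1.27 ± 0.12. Treated and control arrays stood apart for each of these 2 guides. SNORD33 in RPL13A, among the brightest members with a mean near the top of the scale, went from 12.75 and 12.72 to 12.91 and 13.02, a rise of 0.23 ± 0.07 whose sign turned to −0.13 under ribosomal protein centring. At 50 nM 11 of the 21 were higher than with DMSO and 2 lower, where 25.8% of all genes were higher and 23.3% lower. In the direct contrast 12 of the 21 were lower at 50 nM than at 5 nM, where 23.1% of all genes were. SNORD43 kept most of its rise (1.06 ± 0.12), SNORD4B was back at 9.15 and 9.07 with a change of −0.01 ± 0.14, and SNORD21 in RPL5, higher by 0.43 ± 0.10 at 5 nM, was lower by 0.80 ± 0.10 at 50 nM.

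Other noncoding hosts held 12 members, of which 11 were higher at 5 nM, with a median change of 0.89. SNORD50A of SNHG5, a large-subunit guide, read 8.92 and 8.64 with DMSO, 10.51 and 10.40 at 5 nM and 9.97 and 9.86 at 50 nM, rises of 1.68 ± 0.11 and 1.14 ± 0.11. SNORD60 of SNHG19 read 8.00 and 7.78 with DMSO, 9.10 and 8.80 at 5 nM and 9.10 and 9.18 at 50 nM. Both doses stood above DMSO for these 2 snoRNAs, and SNORD60 differed between doses by 0.19 ± 0.13, an adjusted p of 0.30 in limma. SNHG1 gave SNORD28 and SNORD30, which rose by 1.10 ± 0.14 and 1.00 ± 0.11 at 5 nM and at 50 nM changed by 0.18 and −0.21, neither of which passed.

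Many snoRNA hosts belong to the class of genes whose transcripts begin with a C followed by an unbroken run of pyrimidines, a terminal tract known from ribosomal protein mRNAs, so the starts of the 9 noncoding hosts outside the imprinted clusters that had a promoter entry are shown, those with such a tract at the first base before those without. They are the first 50 transcribed bases from the annotated start, 5′ to 3′, from the RefSeq promoters of GRCh38.p14. Capitals mark an unbroken run of C and T that opens with C at the first base, and a run of a C and at least 4 more pyrimidines counts as a tract.
SNHG5 (chr6:85678684-85678733, minus strand): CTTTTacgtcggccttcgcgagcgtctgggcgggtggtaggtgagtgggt
ZFAS1 (chr20:49278642-49278691, plus strand): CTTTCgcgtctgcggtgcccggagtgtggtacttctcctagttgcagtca
SNHG19 (chr16:2155309-2155358, minus strand): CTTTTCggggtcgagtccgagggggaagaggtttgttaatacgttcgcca
SNHG32 (chr6:31834916-31834965, plus strand): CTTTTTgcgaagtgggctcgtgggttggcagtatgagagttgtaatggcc
SNHG1 (chr11:62855836-62855885, minus strand): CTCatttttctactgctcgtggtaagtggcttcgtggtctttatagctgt
GAS5 (chr1:173868996-173869045, minus strand): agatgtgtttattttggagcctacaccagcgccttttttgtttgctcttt
SNHG16 (chr17:76557764-76557813, plus strand): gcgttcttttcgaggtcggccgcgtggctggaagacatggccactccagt
SNHG29 (chr17:16438987-16439036, plus strand): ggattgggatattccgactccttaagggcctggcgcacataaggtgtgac
SNHG30 (chr17:35568114-35568163, plus strand): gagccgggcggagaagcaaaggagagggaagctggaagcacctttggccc
A tract opened the transcript in 11 of the 30 hosts outside the imprinted clusters that had a promoter entry, or 36.7%, against 4.04% of 27305 promoters. Starting anywhere within 10 bases of the annotated start, it was found in 17 of 30 hosts, or 56.7%, and in 33.3% of all promoters. SNHG1 has a run of 3 and GAS5 none at its annotated first base. Members of both hosts rose at 5 nM, and whether such tracts bear on the rises was not tested. These matches describe annotated starts, and the start used in A673 cells was not measured.

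The remaining protein-coding hosts held 24 members, of which 17 were higher at 5 nM and 1 lower. The largest rise of all members was here. SNORD45C in RABGGTB, a small-subunit guide, read 8.35 and 7.90 with DMSO and 10.58 and 10.69 at 5 nM, and rose by 2.51 ± 0.14 or 5.69-fold (limma, adjusted p = 1.1e-07). At 50 nM it read 9.21 and 9.34, between the other 2 groups. The other snoRNAs of the same host changed less at 5 nM, SNORD45B by 1.21 and SNORD45A, a far brighter probe set, by 0.61. SNORD51 in EEF1B2, a translation elongation factor gene, went from 6.27 and 6.15 to 7.91 and 7.73, a rise of 1.61 ± 0.15. SNORD59A in ATP5F1B read higher at 50 nM than at 5 nM. Its arrays were at 5.77 and 4.98 with DMSO, 6.70 and 6.29 at 5 nM and 6.97 and 7.32 at 50 nM, rises of 1.12 ± 0.27 and 1.77 ± 0.27, while the difference between doses did not pass (0.65 ± 0.27, adjusted p = 0.072).

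SNORD56B, which the annotation places inside SIPA1L1, went the other way. It read 6.45 and 5.98 with DMSO, 5.73 and 5.56 at 5 nM and 4.25 and 3.68 at 50 nM. The fall was 0.57 at 5 nM and 2.26 at 50 nM (limma, adjusted p = 4.2e-06), the deepest of any member at that dose. SNORD20 in NCL, the nucleolin gene, rose at 5 nM to 6.10 and 5.84 from 5.23 and 4.89 and was lower at 50 nM, at 4.19 and 4.51. The 3 groups of arrays did not overlap, and the changes were 0.91 ± 0.13 and −0.71 ± 0.13.

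In the imprinted clusters the copies differed by cluster. Of 20 SNORD116 copies, whose loss is linked to Prader-Willi syndrome and which have no known ribosomal target, 12 were higher at 5 nM with a median change of 0.42. At 50 nM 10 were higher and 1 lower, with a median of 0.41, where 25.8% of all genes were higher and 23.3% lower. SNORD116-15 and SNORD116-14, the brightest copies, rose by 0.32 ± 0.09 and 0.45 ± 0.11 at 5 nM and by 0.34 and 0.54 at 50 nM, although SNORD116-15 read −0.050 at 5 nM after ribosomal protein centring. SNORD116-21 rose by 0.75 ± 0.18 at 5 nM and was lower by 0.78 ± 0.18 at 50 nM. Of 20 SNORD115 copies, which lie downstream of SNORD116 in the same host and match the serotonin receptor transcript HTR2C, 2 were higher and 1 lower at 5 nM. Most read near the floor of the scale, SNORD115-4 for example at 2.49 and 2.34 with DMSO and 2.33 and 2.31 at 5 nM. No detection calls were used, so whether such copies were expressed cannot be told. The copies of a cluster are near-identical and their probes may read one another, so values of single copies are uncertain.

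The 6 measured SNORD113 and SNORD114 copies of the imprinted MEG8 region split. SNORD114-3 and SNORD114-26 rose at 5 nM by 0.77 ± 0.11 and 0.52 ± 0.15. SNORD113-3 and SNORD114-2, both dim, fell by 0.81 and 0.75. SNORD113-3 read 4.27 and 4.41 with DMSO, 3.44 and 3.61 at 5 nM and 3.69 and 3.93 at 50 nM. Both treated groups lay below DMSO, and these 2 copies were also the only members called higher after FLI1 shRNA, by 0.50 ± 0.14 and 0.67 ± 0.16.

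SNORD13, which has its own promoter and acts in maturation of the small-subunit RNA, hardly varied. It read 12.87 and 12.92 with DMSO, 13.02 and 13.01 at 5 nM and 12.98 and 13.08 at 50 nM. Its change was 0.12 ± 0.07 at 5 nM, with an adjusted p of 0.20 in limma. It lies close to the top of the scale, where saturation was not tested, and SNORD41, another of the brightest members, likewise changed by 0.23 ± 0.10 and did not pass. The pseudogene SNORD13P2, placed inside FOXK1, read 5.72 and 5.70 with DMSO and 7.68 and 7.13 at 5 nM, a rise of 1.70 ± 0.23, and was back at 5.76 and 6.15 at 50 nM. SNORD13P3, as bright as SNORD13, may read the same RNA. Over 11 in mean signal, 7 of 10 members were higher at 5 nM, with a median change of 0.30.

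At 50 nM fewer members were higher and more were lower. Against DMSO 45 were higher and 12 lower and 58 did not pass, where 25.8% of genes were higher and 23.3% lower, with a median of 0.23 against 0.10. Past 2-fold and an adjusted p under 0.01, 8 members were higher (SNORD43, SNORD45C, SNORD50A, SNORD50B, SNORD51, SNORD59A, SNORD60 and SNORD75) and 2 lower (SNORD56B and SNORD78), against 0.598% and 5.38% of genes. The 12 lower members came from GAS5, ribosomal protein and other hosts and the imprinted clusters, and 7 of the 12 had been higher at 5 nM, namely SNORD116-21, SNORD1B, SNORD20, SNORD21, SNORD77, SNORD78 and SNORD83B. Under ribosomal protein centring the split was 22 higher and 20 lower, or 52.4% rises rather than 78.9%, and the member median turned to −0.036. Without replicate 1 of DMSO the lower count was 6.

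The 2 doses share the DMSO arrays, so they were also compared directly. Set against 5 nM, 41 members were lower at 50 nM, 1 was higher and 73 did not pass, where 23.1% of genes were lower and 21.6% higher. At the stricter threshold (over 2-fold, adjusted p under 0.01) 17 fell and 0 rose, against 6.65% and 4.33% of genes. Outside the imprinted clusters 40 of 69 were lower, and inside them 1 of 46, SNORD116-21. The sole member higher was the dim pseudogene SNORD13P1, at 2.29 and 2.55 at 5 nM and 3.09 and 4.18 at 50 nM, and the count of members higher rose to 10 under ribosomal protein centring (20.8% rather than 2.38% of calls) and ranged from 2 to 4 when one 5 nM or 50 nM array was left out.

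**Figure D3:**
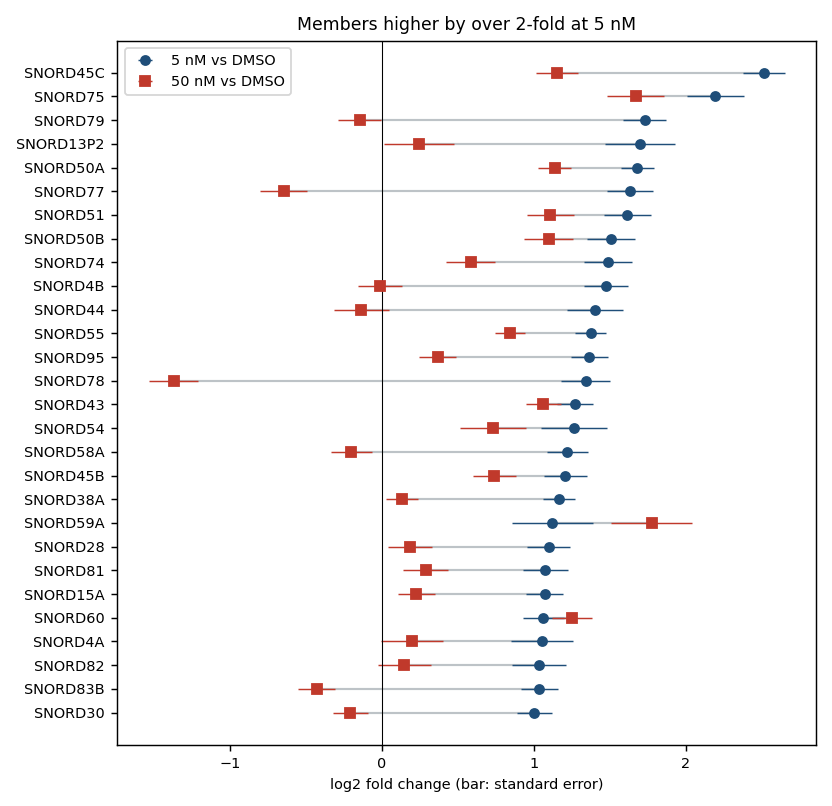
The 28 members higher by over 2-fold at 5 nM with an adjusted p under 0.01; circles give the log2 fold change at 5 nM and squares that at 50 nM, both against the same 2 DMSO arrays, with standard errors. Since these members were chosen for their values on the 5 nM arrays, their lower place at 50 nM is a description only. The squares lie left of the circles for 26 of the 28, with SNORD59A and SNORD60 as exceptions, and reach −1.37 for SNORD78.

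After FLI1 shRNA calls among the members were mostly falls, none of them in the imprinted clusters. Against lacZ shRNA 33 were lower, 2 higher and 80 did not pass, where 9.28% of genes were lower and 14.6% higher, with a median of −0.22 against −0.01. In the clusters 2 of 46 were higher and the median change was 0.007. The 33 lower members comprised 6 of 7 in GAS5, 9 of 12 in other noncoding hosts, 10 of 21 in ribosomal protein genes and 8 of 24 in other protein-coding hosts. The count was 14 without FLI1 shRNA replicate 1 and 17 without lacZ shRNA replicate 1.

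SNORD20 showed the deepest fall. It read 5.66 and 5.65 with lacZ shRNA and 4.11 and 4.11 with FLI1 shRNA, a change of −1.54 ± 0.13 (limma, adjusted p = 2e-05). SNORD28 read 10.74 and 10.84 against 9.38 and 9.76, a change of −1.22 ± 0.14. SNORD30, the other SNHG1 member, changed by −0.99 ± 0.11. In GAS5, SNORD79 read 9.55 and 9.54 with lacZ and 8.39 and 8.43 with FLI1 shRNA, a change of −1.13 ± 0.14, and SNORD75, SNORD78 and SNORD44 changed by −1.07, −1.03 and −1.01. The arrays of both groups were apart in each. SNORD74 alone in GAS5 did not pass, with arrays at 10.85 and 10.87 against 10.29 and 10.89. The members past 2-fold at an adjusted p under 0.01 were SNORD20, SNORD28, SNORD44, SNORD75, SNORD78 and SNORD79, or 6 of 115 against 0.598% of genes. These 6 are the members that the study's list of genes lowered by FLI1 shRNA holds. The list also names SNORD22, SNORD26 and SNORD27, whose probe sets are shared with SNHG1, so that they are not members here. That list was chosen on these same arrays, so it is not independent evidence. SNORD14C and SNORD14E of HSPA8, copies of a snoRNA needed to process the small-subunit RNA, fell by 0.71 and 0.64.

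The drug and the knock-down used separate control arrays, which allows the responses to be compared. Of the 74 members higher at 5 nM and the 33 lower after FLI1 shRNA, 30 were both, or 40.5% and 90.9% of these sets. Over all 18404 genes 495 showed both calls, of 5581 higher at 5 nM and 1707 lower after FLI1 shRNA. These 495 are 2.69% of all genes, a share that is not taken over the called genes. The 3 members lower after FLI1 shRNA but not higher at 5 nM were SNORD1A, SNORD56B and SNORD96A. In the test of the 5 nM response minus the knock-down response 72 members were higher and 3 lower, against 23.7% and 22.8% of genes. The median was 0.82. The 30 were all among the 72, which is no further evidence, since they were chosen for both calls on these same arrays. Past 2-fold and an adjusted p under 0.01 the counts were 46 and 2, against 3.39% and 9.75% of genes. The difference was largest for SNORD75, at 3.26 ± 0.26 (limma, adjusted p = 3.1e-06), and SNORD45C, at 2.99 ± 0.20. Under ribosomal protein centring 11 members were lower and 82.3% of calls rather than 96.0% were higher. The responses also differ in length, 24 h against a labelled 48 h that may have been longer, and in infection and selection, and these cannot be told apart from the agents.

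**Figure D4:**
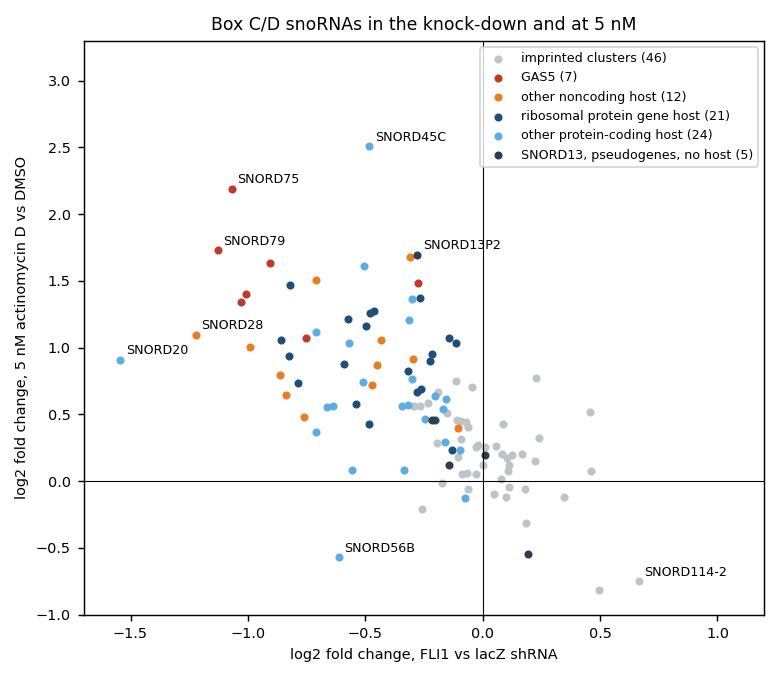
Each point is 1 of the 115 box C/D snoRNAs, placed by its change in the knock-down, FLI1 against lacZ shRNA (horizontal, log2) and by that at 5 nM actinomycin D against DMSO (vertical, log2), coloured by genomic setting. Members of GAS5 and of the other noncoding, ribosomal protein and protein-coding hosts lie mostly at the upper left, and the imprinted clusters near the origin, with SNORD114-2 at 0.67 and −0.75.

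The controls were compared with untreated cells. Between DMSO and untreated cells 0 members passed in limma in either direction, where 0.00543% of genes were higher and 0% lower; 6 members had an unadjusted p under 0.05. Between lacZ shRNA and untreated cells 8 members were higher (SNORD104, SNORD15B, SNORD45B, SNORD50A, SNORD77, SNORD78, SNORD79 and SNORD94) and 0 lower, where 0.815% of genes were higher and 2.26% lower. In GAS5 all 7 members had a positive change, with a median of 0.56, and 3 passed, while the median of the same 7 between FLI1 and lacZ shRNA was −1.01. Over all members 85 of 115 changes were positive. None of the 8 exceeded 2-fold at an adjusted p under 0.01, as 0.038% of genes did upward and 0.0326% downward, and 0 members were higher when any 1 of the 4 arrays was left out. For SNORD78 the untreated arrays were 8.98 and 8.97 and the lacZ arrays 9.78 and 9.60, so that lacZ lay above untreated by 0.72 ± 0.16 and FLI1 shRNA, at 8.55 and 8.78, just below untreated.

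Host genes were set beside 30 of these snoRNAs, in 20 hosts that have a single-symbol probe set. Among the other hosts, GAS5, SNHG1, SNHG5, RPL13A and those of the imprinted clusters have none. SNORD56B, SNORD96B, SNORD13P1, SNORD13P2 and SNORD13P3 were left out, although the genes that contain them have one. At 5 nM these genes changed by −3.41 (SIPA1L1), −0.12 (AMMECR1), 0.46 (PHETA2), −1.01 (FOXK1) and −0.03 (KIF9). At 5 nM the log2 fold change of the snoRNA lay above that of its host in 28 of 30 pairs, with a median difference of 0.68. Of the 20 hosts 11 were higher, 4 lower and 5 did not pass, where 30.3% of all genes were higher and 23% lower. SNORD45C rose by 2.51 where RABGGTB, which encodes a subunit of a prenyltransferase, rose by 0.66. SNORD4B rose by 1.47 where the probe set chosen for RPL23A rose by 0.20. Host probe sets were chosen by symbol and highest mean, and their position in the genome was not checked. Those of RPL23A, RPL7A and RPL5 are numbered among probe sets of genes on other chromosomes, so they may not read the host locus. SNORD53 rose by 0.54 while WDR43, a ribosome biogenesis factor, fell by 1.10. The same opposite calls were seen for SNORD63 in HSPA9 and SNORD94 in PTCD3.

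At 50 nM the pairs were split, with 20 of 30 snoRNAs above their host and 6 opposite calls. WDR43 fell by 2.37 while SNORD53 was higher by 0.47. CHD8, a chromatin remodeller, fell by 1.71 while its SNORD8 changed by −0.01. RABGGTB was lower by 0.29 while its 3 snoRNAs were higher by 0.38 to 1.15. In RPL3 the host rose by 0.27, SNORD43 by 1.06 and SNORD83A by 0.57, and SNORD83B was lower by 0.43. After FLI1 shRNA 29 of 30 snoRNAs lay below their host, with a median difference of −0.46. Of the 20 hosts 0 were higher, 2 lower and 18 did not pass, where 14.6% of all genes were higher and 9.28% lower. NCL fell by 0.40, with SNORD20 at −1.54 and SNORD82 at −0.57. The probe set chosen for RPL23A, which may not read the host locus, changed by −0.02. SNORD42A, SNORD4A and SNORD4B of that host fell by 0.82, 0.86 and 0.82. Hosts were assigned by position within the gene without regard to strand. A probe set inside an intron can read the unspliced host transcript as well as the mature snoRNA, and the 2 cannot be told apart.

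**Figure D5:**
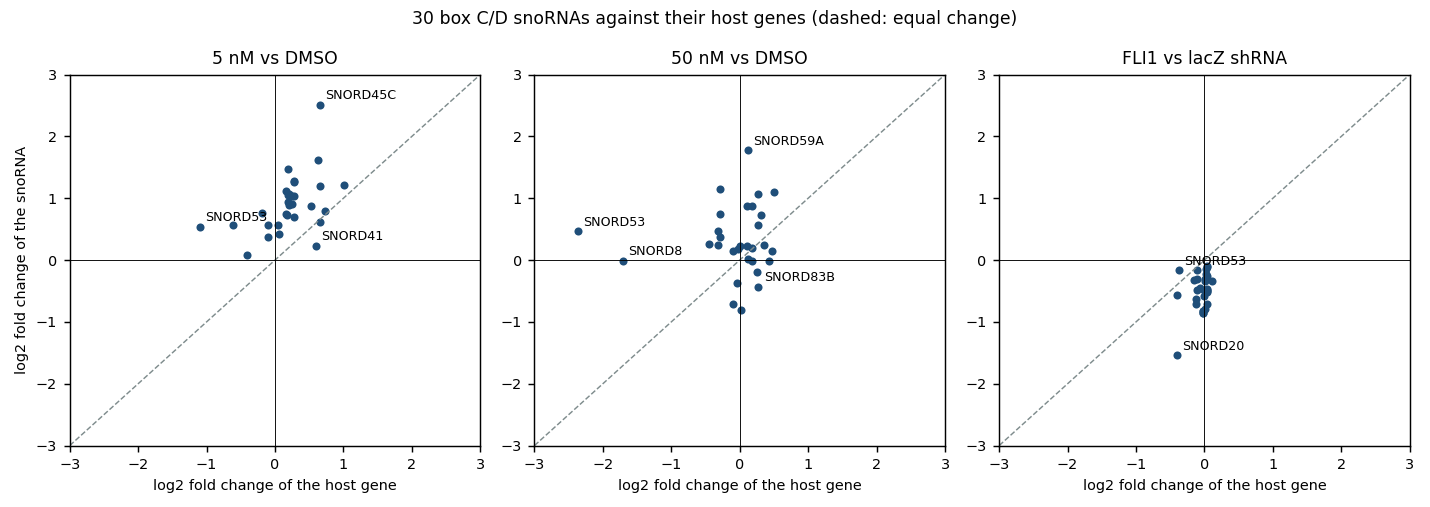
Log2 fold change of 30 box C/D snoRNAs (vertical) against that of the probe sets chosen for their host genes (horizontal) in 3 comparisons. Each point is a pair and the dashed line marks equal change. At 5 nM 28 of 30 points lie above the line, at 50 nM 20 lie above it with SNORD53 and SNORD8 far left, and after FLI1 shRNA 29 lie below it while the hosts lie between −0.40 and 0.10.

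Of the 4 core proteins of the snoRNA particle 2 were measured. FBL, the methyltransferase fibrillarin, read 11.84 and 11.89 with DMSO and 12.16 and 12.06 at 5 nM, a rise of 0.24 ± 0.07 (limma, adjusted p = 0.013), and changed by 0.03 at 50 nM and −0.17 after FLI1 shRNA. NOP58 changed by −0.21, −0.10 and −0.28 in these comparisons and passed in none. NOP56 and SNU13 have no single-symbol probe set. Of 13 assembly factors 4 were higher and 3 lower at 5 nM, 3 higher and 4 lower at 50 nM and 0 higher and 2 lower after FLI1 shRNA. At both doses these shares were near those of all genes. They were 30.8% and 23.1% against 30.3% and 23% at 5 nM, and 23.1% and 30.8% against 25.8% and 23.3% at 50 nM. After FLI1 shRNA 14.6% of all genes were higher and 9.28% lower. PIH1D1, a subunit of the R2TP chaperone, rose by 0.67 ± 0.10 at 5 nM and NOLC1, a nucleolar chaperone of snoRNPs, by 0.58 ± 0.08, and NOLC1 fell by 0.42 after FLI1 shRNA. TGS1, which hypermethylates snoRNA caps, fell by 0.68 at 5 nM and 1.55 at 50 nM, and DNAAF2 fell by 2.07 at 50 nM.

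Factors that open lariats and trim or degrade snoRNA precursors were mostly lower where they passed. Of 16, 5 were higher and 9 lower, then 1 higher and 9 lower at 50 nM and 1 higher and 5 lower after FLI1 shRNA. The share higher was 31.3% at 5 nM, near the 30.3% of all genes, and 6.25% at 50 nM, against 25.8%. The share lower was 56.3% at each dose, where 23% and 23.3% of all genes were lower. After FLI1 shRNA 6.25% were higher and 31.3% lower, against 14.6% and 9.28% of all genes. DBR1, the lariat debranching enzyme, rose by 1.37 ± 0.11 at 5 nM and fell by 0.70 at 50 nM. PARN, which trims poly(A) tails, fell by 1.93 ± 0.08, MTREX, the helicase of the nuclear exosome, by 1.75 ± 0.10, and XRN1, the cytoplasmic exonuclease, by 1.32 ± 0.07, all at 5 nM. At 50 nM PARN and XRN1 changed by −0.09 and −0.01 and did not pass, while MTREX fell by 0.96. Of 5 factors of nonsense-mediated decay, the pathway that degrades spliced GAS5 RNA, 3 were lower at 5 nM, where 23% of all genes were. UPF2 fell by 1.05, SMG1 by 1.27 and SMG6 by 1.14. Whether these changes bear on the snoRNAs was not tested.

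Box H/ACA snoRNAs, the pseudouridine guides, were measured in the same way. At 5 nM 42 of 61 were higher and 0 lower, with a median of 0.54, at 50 nM 28 were higher and 5 lower, and after FLI1 shRNA 0 were higher and 9 lower. Over all genes 30.3% were higher and 23% lower at 5 nM, 25.8% and 23.3% at 50 nM, and 14.6% and 9.28% after FLI1 shRNA. Of 16 Cajal body RNAs 11 were higher at 5 nM and 10 at 50 nM. No difference between these classes and the box C/D members was tested.

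Over the 6 group means the median box C/D level was highest at 5 nM. The genes outside the small nucleolar and Cajal body RNAs whose group means ran most nearly parallel to it were LONRF3, LGR6 and FUT4, with Pearson's r of 0.997, 0.995 and 0.994 over 6 groups. FUT4 for example averaged 7.90 with DMSO, 8.28 at 5 nM, 7.98 at 50 nM, 7.99 with lacZ and 7.79 with FLI1 shRNA. These values only rank the genes, since 6 group means of the same arrays enter each.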

How the data were processed

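RNA of 12 A673 samples, 2 per group, was hybridized by the authors to Affymetrix HuGene 1.0 ST arrays. The deposited values are log2 signals, made by the authors with RMA in the affy package, with no version named in the sources at hand, and they were used unchanged. Of 32321 probe sets 19158 carried a single symbol, and the one with the highest mean stood for each of 18404 genes. Samples were grouped by title. The number of arrays limits the precision of every comparison; an exact permutation test of 2 against 2 cannot go below 0.333, so p-values come from limma.

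A fit of all 12 arrays (R 4.3.3, limma 3.58.1, group means and contrasts, 6 residual and 4.45 prior degrees of freedom) was adjusted by Benjamini-Hochberg over all genes. On simulated data for 5 nM against DMSO, over 18404 genes, it recovered 67.2%, 97.0% and 100% of 67, 67 and 66 genes changed by 0.5, 1 and 2 log2 units, with 8 false calls. Only these genes were changed, and the noise was normal and independent between genes. In the real comparison 5581 genes were called higher and 4234 lower, so the simulation does not give the error rate of the real calls. Hosts and promoters came from RefSeq GRCh38.p14, the former by containment without strand. No sequences of the snoRNAs themselves were used here.

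Members, lists and rules were chosen with earlier results of these data known. Named members were the 6 largest rises and falls with arrays that do not overlap in the 3 main comparisons, the study's listed SNORDs, all of GAS5 and SNHG1, SNORD13 and SNORD14 copies, and the brightest members of all, per host and per imprinted cluster; others, named as members of a short count or a host, were chosen after their values were seen. So were the host classes, the level ranges, the host pairs (from which imprinted-cluster members, the SNORD13 family, SNORD56B and SNORD96B were left out) and the start-tract measure. Alternatives were the replicate block, the arrays compared alone, dim genes left out (below a mean of 6.82), the mean over probe sets, all rows, renewed quantile normalization, ribosomal protein centring, eBayes with trend and robust estimation, and each array left out.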

Additional observations from a re-analysis of the deposited data

Results flagged for a closer look

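Signal outside the measurement described above came from 37 probe sets annotated with several symbols of which at least one is a SNORD. In a fit of all rows, 24 of these 37 were higher at 5 nM actinomycin D than with DMSO and 2 lower. The median change was 0.84, and 25.4% of all rows were higher and 15.5% lower. At 50 nM 13 were higher and 4 lower, where 23.4% of all rows were higher and 16.9% lower. After FLI1 shRNA 0 were higher and 13 lower, where 7.32% of all rows were higher and 6.01% lower. The probe set shared by SNHG1 and SNORD22 changed by 2.27 at 5 nM, 0.59 at 50 nM and −1.19 after FLI1 shRNA, and that shared by GAS5 and SNORD47 by 1.35, 0.04 and −0.74. The probe set of the SNORD3 copies, which encode the U3 RNA needed for cleavage of the ribosomal precursor, changed by 0.84, −0.45 and −0.28. Which of the symbols a probe set read cannot be told apart.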

How the results depend on the processing

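Of the 57 ribosomal protein genes used for centring, 41 were themselves higher at 5 nM and 31 at 50 nM, and 0 were lower at either dose. Over all genes 30.3% were higher at 5 nM and 25.8% at 50 nM. Ribosomal protein centring gave 43 members higher and 18 lower at 5 nM, 22 and 20 at 50 nM, 10 higher in the direct contrast of doses and 11 lower in the 5 nM response minus the knock-down response. It turned SNORD115-3 (−0.042), SNORD116-15 (−0.050) and SNORD33 (−0.13) at 5 nM, SNORD33 (−0.040) and the member median (−0.036) at 50 nM, and SNORD33 (−0.016) in that difference of responses. Without dim genes the counts lower at 5 nM, higher at 50 nM against 5 nM, higher after FLI1 shRNA and lower in the difference of responses were 0, and that lower at 50 nM was 5; 54 members lie below this limit. With all rows tested, 2 were lower at 5 nM, 1 higher after FLI1 shRNA and 0 higher with lacZ shRNA against untreated. Members higher at 50 nM than at 5 nM were 2 in the fit of only those arrays and with the mean over probe sets, and members higher with lacZ shRNA were 14 with trend and robust estimation.

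With single arrays left out, members higher and lower ranged from 55 to 73 and 2 to 5 at 5 nM (2 without DMSO replicate 1 or 5 nM replicate 2), 30 to 37 and 6 to 15 at 50 nM, 2 to 4 and 34 to 42 between doses, 0 to 6 and 14 to 38 after FLI1 shRNA, and 61 to 75 and 2 to 4 in the difference of responses. After FLI1 shRNA the higher count was 6 without FLI1 shRNA replicate 1, 4 without lacZ replicate 1 and 0 without either replicate 2. For lacZ shRNA against untreated it was 0 each time.

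The replicate number as a block left 2 members higher with lacZ shRNA and kept the other counts within 1.5 times. Same-numbered arrays shared only a number: over 15 pairs of groups the correlations of their deviations ran from −0.453 to 0.335, and 6 were over 0.1. Among single members, 3256 values kept direction and side of the threshold, 171 lost it, 64 gained it and 5 turned. The causes were not tested.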
